A study of Mus musculus with 15 samples.

Results

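The circadian clock genes and the clock output gene *Dbp* were followed in mouse hearts during isoproterenol treatment. The members were 10 genes chosen by symbol in the deposited gene tables, which list 55401 genes. They were *Arntl* (also called Bmal1), *Clock*, *Npas2*, *Per1*, *Per2*, *Per3*, *Nr1d1*, *Nr1d2*, *Dbp* and *Ciart*. Each symbol matched 1 gene, and all 10 were among the 26862 genes that passed the filter on low counts. The hearts came from C57BL6 male mice, 12 weeks old, treated subcutaneously with isoproterenol (daily dose 50 mg/kg/day) over 4 days (4 hearts), 8 days (3 hearts) or 11 days (4 hearts), or with saline (4 hearts). Isoproterenol activates the β-adrenergic receptors of the heart, and repeated doses serve as a common model of cardiac hypertrophy and fibrosis. Hearts of a group carry the letters A to D as in the labels, and each is 1 RNA-seq library of ventricular RNA. A replicate of the 8-day group was left out by the authors for its quality. The same 4 saline hearts served all 3 comparisons, so those comparisons share them.

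The clock is a feedback loop that most cells of the body run, the heart muscle cell among them. In its positive limb, ARNTL pairs with CLOCK or with the related protein NPAS2 and binds E-box sequences, which raises transcription of the genes that carry them. Among these genes are the Period genes and *Ciart*, whose products hold the pair back, *Nr1d1* and *Nr1d2*, whose REV-ERB proteins repress *Arntl* at ROR elements, and *Dbp*, a factor that drives output genes through D-box sequences. The mRNAs of the last 7 members are called the E-box-driven genes here, from this textbook scheme and not from a measurement. In tissues with a running clock the levels of *Arntl* and of *Dbp* or *Nr1d1* peak at opposite times of day. The time of day at which each heart was collected is not given in the sources used here, and a difference between groups in that time cannot be told apart from the treatment.

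Levels are given as CPM, the gene's count relative to the library's total, scaled by TMM, edgeR's correction for library composition, over all 15 libraries. Fold changes are log2 values, isoproterenol over saline, each with its standard error (SE). The p-values come from edgeR's quasi-likelihood test on the 2 groups compared, adjusted by Benjamini-Hochberg over 26862 genes, with a threshold of 0.05. Libraries held 25404162 to 117777005 counts. One library, 8-day A, stood apart. The features CT010467.1 and Lars2 together took 15.8% of its counts, against 0.0116 to 0.0916% in the other 14, and its TMM factor was 0.704, against 0.820 to 1.19. The summed level of 8 cardiomyocyte marker genes was 32673 to 37271 CPM at 4 days, 31258 to 35235 CPM at 8 days, 36179 to 40155 CPM at 11 days and 35989 to 42459 CPM in saline hearts, so heart muscle RNA was present in every library.

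The 3 stretches below are the start-site sequences in which an E-box or a D-box was found. Start-site windows of RefSeq on GRCm38.p6 (250 bases before to 50 after each start) were available for 9 of the 10 members. They were searched on both strands for the E-box CACGTG, for the D-box TTATGTAA or TTACGTAA and for the ROR element. The *Ciart* stretch (chr3:95882252-95882478, reverse strand) holds 3 E-boxes, which begin 116, 58 and 44 bases before the start. The *Per1* stretch (chr11:69098699-69098947, forward strand) holds 1 E-box at 166 bases. The *Per3* stretch (chr4:151044666-151044915, reverse strand) holds 2 D-boxes, at 205 and 158 bases. Capitals mark the E-boxes in *Ciart* and *Per1* and the D-boxes in *Per3*, and bases within annotated exons were left out.
Ciart: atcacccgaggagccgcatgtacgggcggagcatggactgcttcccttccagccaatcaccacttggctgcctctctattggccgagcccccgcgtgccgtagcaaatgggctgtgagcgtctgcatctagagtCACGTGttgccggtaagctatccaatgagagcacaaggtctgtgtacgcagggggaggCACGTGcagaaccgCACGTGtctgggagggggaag
Per1: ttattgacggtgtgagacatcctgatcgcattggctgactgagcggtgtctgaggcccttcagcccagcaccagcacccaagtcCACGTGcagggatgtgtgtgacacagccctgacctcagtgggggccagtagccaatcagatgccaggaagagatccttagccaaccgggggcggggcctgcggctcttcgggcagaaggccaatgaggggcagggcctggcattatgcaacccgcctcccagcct
Per3: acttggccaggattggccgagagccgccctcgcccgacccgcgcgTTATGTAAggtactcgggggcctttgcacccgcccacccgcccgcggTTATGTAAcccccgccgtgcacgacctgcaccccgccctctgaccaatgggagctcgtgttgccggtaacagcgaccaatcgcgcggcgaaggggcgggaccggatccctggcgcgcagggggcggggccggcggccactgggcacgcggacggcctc

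A ROR element, the sequence through which REV-ERB proteins repress and ROR proteins activate, lies 26 bases past one of the *Arntl* start sites (chr7:113207527-113207556, forward strand), where capitals mark it.
Arntl: gggaaggcagAAAGTAGGTCAgggacggag

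E-boxes were present in 7.15% of 32851 windows of all genes, D-boxes in 1.06% and ROR elements in 0.384%. Of the 6 E-box-driven genes with a window, *Ciart* and *Per1* held an E-box there. The windows of *Clock*, *Npas2*, *Nr1d1*, *Nr1d2* and *Dbp* held none of the 3 motifs, which says nothing about sites outside these bases.

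*Arntl* was the member that rose. In the 11-day hearts it stood at 3.30, 2.67, 2.91 and 2.91 CPM, against 0.846, 0.677, 0.549 and 0.506 CPM in the saline hearts. At 4 days it had 1.49, 1.41, 1.25 and 1.28 CPM, and at 8 days 1.92, 1.73 and 1.72 CPM. Every treated heart lay above every saline heart, and the 3 treated groups did not overlap either, with 4-day hearts lowest and 11-day hearts highest. The log2 fold change was 1.07 ± 0.20 at 4 days (SE, edgeR adjusted p = 0.00424), 1.46 ± 0.24 at 8 days (edgeR adjusted p = 0.0053) and 2.17 ± 0.17 at 11 days (edgeR adjusted p = 2.89e-05). The last is a 4.51-fold higher level. *Arntl* (chr7:113207465-113314126 of GRCm38, forward strand) is a low-abundance mRNA here, and its values rest on 97 to 292 counts in the 11-day libraries and 12 to 65 counts in the saline libraries. Each of these calls held with any 1 heart left out.

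The partners of *Arntl* did not pass the edgeR test against saline at any time. *Clock* (chr5:76209868-76304792, reverse strand), the usual partner, had 31.3, 33.5, 32.4 and 33.0 CPM at 11 days, against 32.0, 29.9, 28.7 and 24.8 CPM in saline hearts. The groups overlapped, and the log2 fold change was 0.16, with a 95% confidence interval of -0.01 to 0.34 (edgeR adjusted p = 0.329). At 4 and 8 days it was -0.01 and -0.06 (edgeR adjusted p = 0.97 and 0.866). *Npas2* (chr1:39193731-39363236, forward strand), which can stand in for *Clock*, had 0.900, 0.881, 1.65 and 1.04 CPM in the 11-day hearts, against 0.792, 0.353, 0.929 and 0.802 CPM in the saline hearts. Its groups overlapped too. The log2 fold change at 11 days was 0.58, with an interval of -0.01 to 1.18 (edgeR adjusted p = 0.303), and the values rest on 12 to 133 counts a library. DESeq2 with effective lengths gave 1.08 at 11 days and called it (adjusted p = 0.0407).

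**Figure D1:**
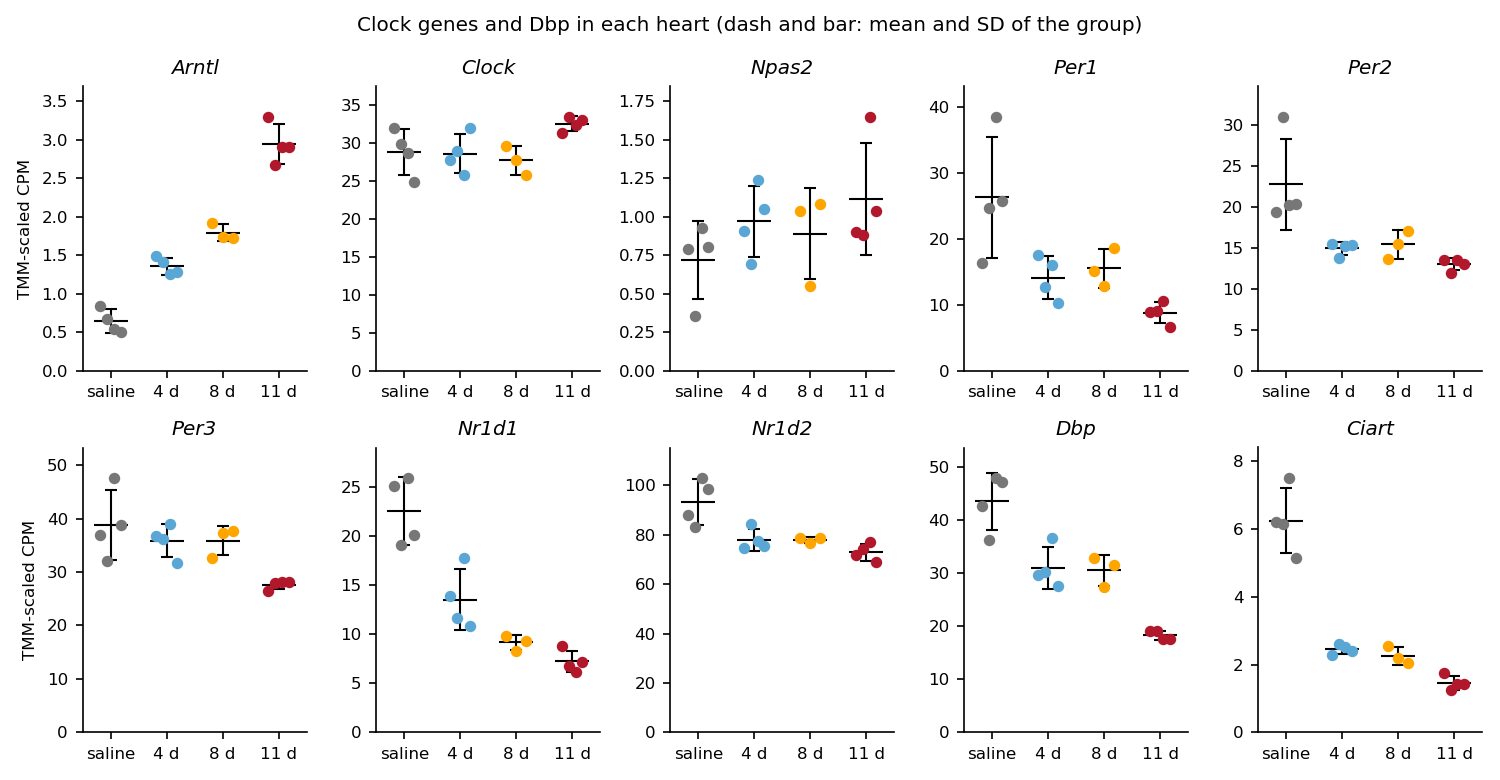
TMM-scaled CPM (vertical axis, from 0) of each member in each heart, with saline, 4-day, 8-day and 11-day hearts from left to right; points are hearts, the dash and bar the group's mean and SD (n = 4, 3 at 8 days). By group mean *Arntl* stands highest and the 7 E-box-driven genes stand lowest at 11 days. Single 11-day hearts overlap other treated hearts for *Per1*, *Nr1d1* and *Nr1d2*. Every treated group overlaps the saline hearts for *Clock* and *Npas2*.

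*Ciart*, which encodes a repressor of the ARNTL-CLOCK pair, fell at every time and had the smallest p of all 26862 genes at 11 days. Its 11-day hearts had 1.74, 1.24, 1.43 and 1.42 CPM, against 6.21, 6.15, 7.51 and 5.15 CPM in saline hearts. The 4-day hearts had 2.30, 2.62, 2.51 and 2.39 CPM and the 8-day hearts 2.04 to 2.56 CPM. All 11 treated hearts lay below all 4 saline hearts, and the 11-day hearts lay below the other treated hearts. The log2 fold change was -1.36 ± 0.13 at 4 days (SE, edgeR adjusted p = 0.000111), -1.48 ± 0.16 at 8 days (edgeR adjusted p = 0.000382) and -2.11 ± 0.14 at 11 days (edgeR adjusted p = 1.68e-05), a 4.33-fold lower level. The values rest on 45 to 143 counts in 11-day libraries and 122 to 889 in saline libraries. *Ciart* (chr3:95878503-95882251, reverse strand) is the gene whose 3 E-boxes are printed above.

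Both REV-ERB genes were lower at 11 days. *Nr1d1* (chr11:98767932-98775333, reverse strand), the REV-ERBα gene, had 8.79, 6.77, 6.20 and 7.19 CPM in 11-day hearts, against 25.2, 19.1, 25.9 and 20.1 CPM in saline hearts. It had 13.9, 11.7, 17.8 and 10.8 CPM at 4 days and 9.88, 8.33 and 9.31 CPM at 8 days. Every treated heart was below every saline heart, and the 4-day hearts lay between the saline and the 8-day hearts without overlap. The log2 fold change was -0.73 ± 0.15 at 4 days (SE, edgeR adjusted p = 0.00701), -1.30 ± 0.13 at 8 days (edgeR adjusted p = 0.000196) and -1.65 ± 0.12 at 11 days (edgeR adjusted p = 2.22e-05). *Nr1d2* (chr14:18204054-18239127, reverse strand), the REV-ERBβ gene, had 71.6, 74.2, 77.0 and 69.0 CPM at 11 days, against 87.9, 82.9, 103 and 98.6 CPM in saline hearts. These groups did not overlap, but the drop was small. In the main edgeR test *Nr1d2* passed only at 11 days, at -0.36 ± 0.081 (SE, edgeR adjusted p = 0.0254). The call was lost with any of 6 of the 8 hearts left out (saline C or D, or any 11-day heart; edgeR adjusted p = 0.0516 to 0.0921). At 4 and 8 days the log2 fold changes were -0.25 and -0.26 (edgeR adjusted p = 0.102 and 0.25). The 4-day value passed without saline B (edgeR adjusted p = 0.0409), with DESeq2 (0.0319) and with all groups in one edgeR fit (0.0286).

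The Period genes, whose proteins join the complex that holds ARNTL and CLOCK back, were all lower at 11 days. *Per1* (chr11:69095217-69109960, forward strand) had 8.92, 9.03, 10.6 and 6.68 CPM in 11-day hearts, against 16.3, 24.6, 38.5 and 25.8 CPM in saline hearts. Its 4-day and 8-day hearts, at 10.2 to 17.5 and 12.8 to 18.7 CPM, overlapped the saline hearts at saline A. The log2 fold change was -0.89 ± 0.22 at 4 days (SE, edgeR adjusted p = 0.021), -0.77 ± 0.22 at 8 days (edgeR adjusted p = 0.107; 0.0179 with DESeq2) and -1.60 ± 0.21 at 11 days (edgeR adjusted p = 0.00108). The 4-day call was lost without saline C or without 4-day D (edgeR adjusted p = 0.0634 and 0.0682), and the 8-day value passed without saline A (edgeR adjusted p = 0.0172). Other settings also lost the 4-day call, among them robust dispersions (edgeR adjusted p = 0.138) and limma voom with quality weights (adjusted p = 0.0749).

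*Per2* (chr1:91415982-91459324, reverse strand) had 13.5, 11.9, 13.6 and 13.1 CPM in 11-day hearts, against 19.4, 31.1, 20.3 and 20.4 CPM in saline hearts, where saline B stood above the rest. The 4-day hearts held 13.8 to 15.5 CPM and the 8-day hearts 13.7 to 17.1 CPM, all below the saline range. The log2 fold change was -0.60 ± 0.13 at 4 days (SE, edgeR adjusted p = 0.0119), -0.56 ± 0.16 at 8 days (edgeR adjusted p = 0.0862; 0.0241 with DESeq2) and -0.81 ± 0.13 at 11 days (edgeR adjusted p = 0.00399). With effective lengths as offsets the 11-day value was -0.62 and did not pass (edgeR adjusted p = 0.0662). *Per3* (chr4:151003652-151044665, reverse strand), the Period gene with the D-boxes printed above, had 26.5, 27.9, 28.0 and 28.1 CPM in 11-day hearts, against 36.8, 32.0, 47.6 and 38.7 CPM in saline hearts. Its 4-day and 8-day hearts, at 31.7 to 39.0 and 32.7 to 37.7 CPM, overlapped the saline hearts. It passed only at 11 days, at -0.50 ± 0.10 (SE, edgeR adjusted p = 0.0157), and not without 11-day A or 11-day B (edgeR adjusted p = 0.0563 and 0.053). At 4 and 8 days the log2 fold changes were -0.11 and -0.12 (edgeR adjusted p = 0.648 and 0.757).

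*Dbp* (chr7:45705088-45710203, forward strand), the D-box activator and the output gene of the set, fell at all 3 times. It had 19.1, 19.0, 17.5 and 17.6 CPM in 11-day hearts, against 42.6, 36.1, 47.9 and 47.2 CPM in saline hearts. The 4-day hearts had 29.7, 30.1, 36.7 and 27.5 CPM and the 8-day hearts 32.8, 27.3 and 31.4 CPM. The 4-day and 8-day hearts occupied the same range, 4-day C just reached the lowest saline heart, and all 11-day hearts lay below every other heart. The log2 fold change was -0.48 ± 0.11 at 4 days (SE, edgeR adjusted p = 0.0135), -0.51 ± 0.12 at 8 days (edgeR adjusted p = 0.0332) and -1.26 ± 0.091 at 11 days (edgeR adjusted p = 2.07e-05), a 2.39-fold lower level at 11 days. The 8-day call was lost with any of 6 of the 7 hearts left out, 8-day A among them (edgeR adjusted p = 0.0513 to 0.147). The 11-day call held with any heart left out.

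**Figure D2:**
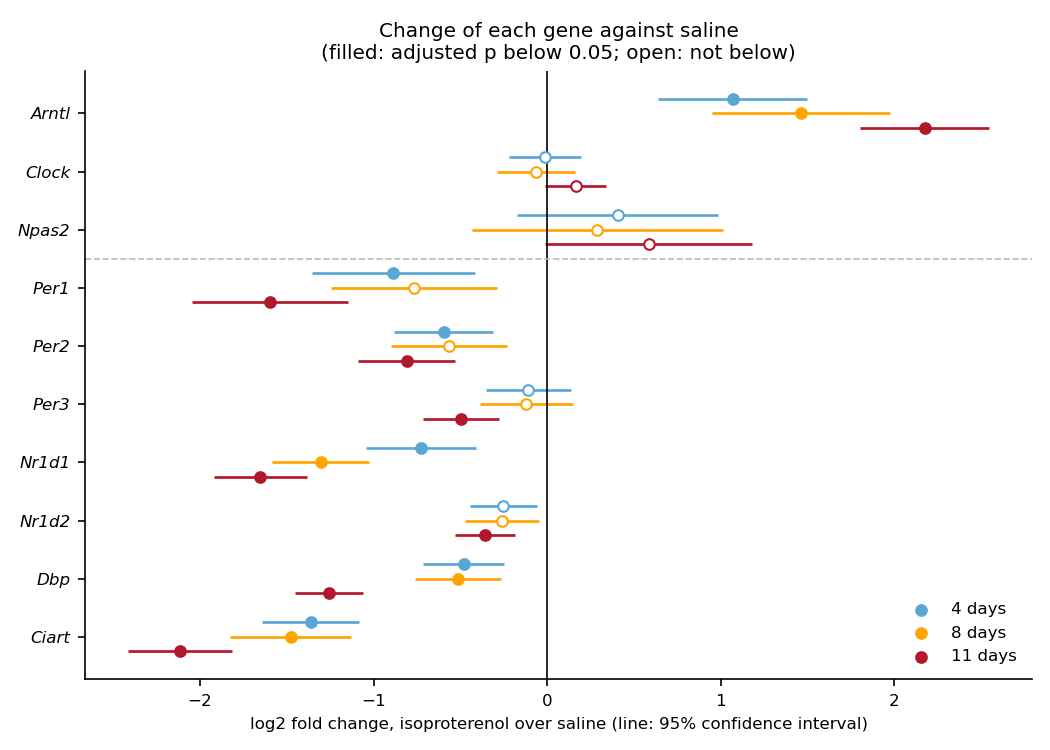
Log2 fold change of each member over saline at 4, 8 and 11 days (horizontal axis, 0 is no change), with 95% confidence intervals from edgeR as lines; filled points have an adjusted p below 0.05, open points do not, and a dashed line separates the positive limb from the E-box-driven genes. At 11 days *Arntl* stands at 2.17 and *Ciart* at -2.11, and the intervals of *Clock* and *Npas2* include 0.

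At 4 days 6 of the 10 members passed the test, *Arntl* higher and *Per1*, *Per2*, *Nr1d1*, *Dbp* and *Ciart* lower, where 9.45% of all genes tested passed (6.04% higher and 3.41% lower). At 8 days 4 passed, *Arntl* higher and *Nr1d1*, *Dbp* and *Ciart* lower, against 2.27% of all genes. At 11 days 8 passed, *Arntl* higher and all 7 E-box-driven genes lower, against 3.75% of all genes (1.80% higher and 1.95% lower). The median log2 fold change of the E-box-driven genes was -0.60, -0.56 and -1.26 at 4, 8 and 11 days, and that of all genes was 0.01, -0.01 and -0.01. At 11 days *Ciart*, *Dbp*, *Nr1d1* and *Arntl* held places 1, 2, 4 and 6 in the order of p over all genes. Treated and saline hearts did not overlap for 4 members at 4 days, against 13.7% of all genes, for 6 at 8 days, against 12.8%, and for 8 at 11 days, against 10.6%. In an F test over all 4 groups 8 members passed, against 13.0% of all genes, and with the 3 treated groups averaged 7 passed, against 8.53%. The members were chosen with earlier results of these data known. Their counts and places beside all genes are therefore a description and not an independent test.

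Without the library 8-day A, 3 members passed at 8 days in place of 4. *Arntl* kept 1.39 ± 0.28 (SE, edgeR adjusted p = 0.0291), *Nr1d1* -1.38 ± 0.15 (edgeR adjusted p = 0.00114) and *Ciart* -1.60 ± 0.19 (edgeR adjusted p = 0.00153), while *Dbp* stood at -0.59 ± 0.13 (edgeR adjusted p = 0.0513). With no scaling beyond library size, the all-gene median at 4 days was 0.21 on the log2 scale, and *Per1*, *Per2*, *Nr1d1* and *Dbp* did not pass at 4 days. At 11 days *Per3* and *Nr1d2* did not pass with library size only (edgeR adjusted p = 0.0801 and 0.167). Limma on log2(FPKM + 0.1) left 2, 0 and 4 members past the threshold at 4, 8 and 11 days, and *Arntl*, *Nr1d1*, *Dbp* and *Ciart* were the 4. That setting called 1005, 5 and 121 of all 26862 genes.

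The treated groups were also compared with one another, to see whether the longer treatment differed from the shorter ones. Between 11 and 4 days 6 members passed, 1 higher and 5 lower, against 10.3% of all genes (3.75% higher and 6.55% lower). *Arntl* was higher at 11 days by 1.11 ± 0.13 (SE, edgeR adjusted p = 0.000302). *Nr1d1* was lower by 0.92 on the log2 scale, *Dbp* by 0.77, *Ciart* by 0.75, *Per1* by 0.72 and *Per3* by 0.39 (edgeR adjusted p = 0.00144, 0.000285, 0.00325, 0.0109 and 0.00363). Hearts of the 2 groups did not overlap for *Arntl*, *Nr1d1*, *Dbp*, *Ciart*, *Per3* and *Per2*, against 14.4% of all genes, and for *Per1* they did. The *Ciart* call was lost once effective transcript lengths entered as offsets (edgeR adjusted p = 0.169). *Per2* did not pass (edgeR adjusted p = 0.0784). It did pass without 4-day B (0.0395), with no scaling beyond library size (0.0306) and with the filterByExpr filter (0.0429).

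Between 11 and 8 days *Dbp* and *Per1* passed, at log2 differences of -0.74 ± 0.081 and -0.83 ± 0.15 (SE, edgeR adjusted p = 0.00389 and 0.0428), against 0.138% of all genes (0.0782% lower). Without 8-day A *Dbp* stood at -0.69 (edgeR adjusted p = 0.00829), and with no scaling beyond library size at -0.58 (edgeR adjusted p = 0.282). The *Per1* call was lost with any of 5 of the 7 hearts left out (8-day A or C, or 11-day A, B or D; edgeR adjusted p = 0.0604 to 0.159). *Arntl* differed by 0.71 ± 0.15 without passing (edgeR adjusted p = 0.0765; 0.0217 with DESeq2), its 11-day and 8-day hearts not overlapping (as for 11.6% of all genes). *Per3* differed by -0.38 (edgeR adjusted p = 0.0638; 0.0393 without 8-day A; 0.000808 with DESeq2). Between 8 and 4 days 0 of 10 members passed the edgeR test, against 0.249% of all genes, with log2 differences of -0.58 (*Nr1d1*) to 0.39 (*Arntl*). These same 2 genes had an unadjusted p under 0.05, as had 3102 of all 26862 genes. DESeq2 called 1 member, *Nr1d1*.

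The limbs were set against each other within each heart, where library scaling largely cancels. The mean log2(CPM + 0.5) of the 7 E-box-driven genes exceeded that of *Arntl*, *Clock* and *Npas2* by 1.23 ± 0.10 in the 11-day hearts and by 3.05 ± 0.20 in the saline hearts (SD, n = 4 each). It exceeded it by 2.13 ± 0.15 at 4 days (SD, n = 4) and by 2.01 ± 0.092 at 8 days (SD, n = 3). The saline hearts held the widest and the 11-day hearts the narrowest gap, with the 4-day and 8-day hearts overlapping in between. The positive-limb mean rose mostly through *Arntl*, a low-count gene. Its log2 fold change at 11 days was 2.17, beside 0.16 for *Clock* and 0.58 for *Npas2*, which did not pass.

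Ratios of counts within a library gave the same order without any scaling. For each count of *Arntl* there were 6.25 ± 0.60 counts of *Dbp* in 11-day hearts and 71.0 ± 22.3 in saline hearts (SD, n = 4 each). The ratio was 23.0 ± 4.21 at 4 days and 17.0 ± 1.25 at 8 days (SD, n = 4 and 3). For *Nr1d1* it was 2.45 ± 0.23 in 11-day and 36.2 ± 8.94 in saline hearts, and for *Ciart* 0.494 ± 0.027 in 11-day and 10.1 ± 2.67 in saline hearts (SD, n = 4 each). Hearts of the 11-day and saline groups stood far apart in all 3 ratios, and *Ciart* counts outnumbered *Arntl* counts in each saline heart (7.34 to 13.7 for 1) and in no 11-day heart (0.464 to 0.528 for 1).

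**Figure D3:**
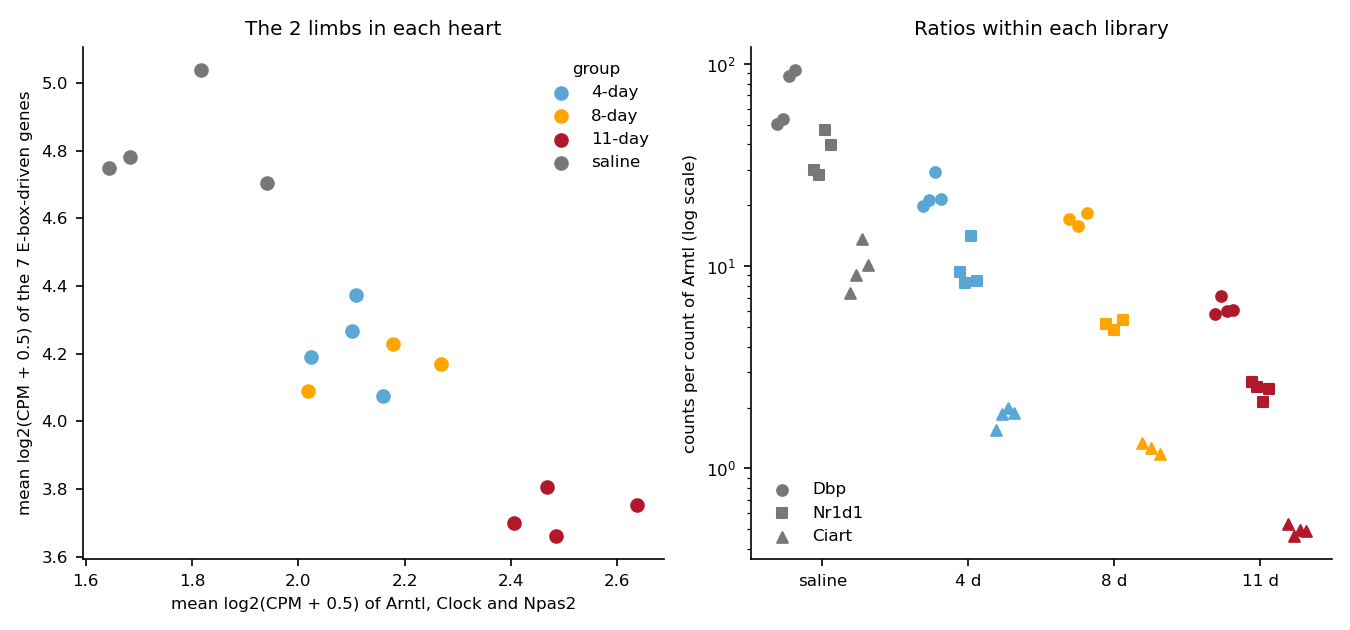
Left, mean log2(CPM + 0.5) of the 7 E-box-driven genes (vertical) against that of *Arntl*, *Clock* and *Npas2* (horizontal), 1 point a heart; right, counts of *Dbp*, *Nr1d1* and *Ciart* per count of *Arntl* in each heart on a log axis, from saline to 11 days. The 11-day hearts sit at the lower right, apart from the saline hearts at the upper left, and their *Dbp* ratio averages 6.25.

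Levels of different genes were compared as FPKM, which divides by length. In the 11-day hearts *Nr1d2* (21.3 ± 0.96 FPKM) led *Dbp* (14.1 ± 0.91 FPKM), while in the saline hearts *Dbp* (32.4 ± 4.29 FPKM) led *Nr1d2* (26.9 ± 3.46 FPKM) (SD, n = 4 each). The ranges of these 2 genes were apart at 11 days and overlapped in the saline hearts (28.9 to 38.2 FPKM for *Dbp* and 24.2 to 32.0 FPKM for *Nr1d2*). *Per1*, *Per2*, *Per3*, *Clock*, *Nr1d1* and *Ciart* had group means of 1.77 to 9.50 FPKM. *Arntl* reached 1.10 ± 0.095 FPKM at 11 days, against 0.230 ± 0.082 FPKM in saline hearts (SD, n = 4 each), and *Npas2* stayed at or under 0.405 FPKM in every group mean.

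RSEM also gave each transcript's share of its gene's abundance, in percent after division by transcript length. *Nr1d1-201* carried 75.6 to 83.0% of *Nr1d1* at 11 days, against 86.0 to 90.4% in saline hearts. For *Ciart*, transcript *Ciart-205* carried 34.7 to 42.4% at 11 days, against 17.8 to 29.3% in saline hearts, and *Ciart-201* 23.2 to 33.8%, against 42.3 to 54.7%. The 11-day and saline ranges of these 3 transcripts did not overlap. They were picked out after their values were seen, carry no test, and for *Ciart-205* rest on 7.49 to 30.4 estimated counts in 11-day hearts.

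Other components of the clock went both ways. Of 15 further clock components, 2 passed at 4 days, 3 at 8 days and 6 at 11 days (3 higher, 3 lower), beside 9.45, 2.27 and 3.75% of all genes, with a median log2 fold change of 0.02 at 11 days, against -0.01 for all genes. *Rora*, which encodes an activator at ROR elements, stood at 0.14, 0.43 and 0.33 at 4, 8 and 11 days (edgeR adjusted p = 0.384, 0.0485 and 0.0399). Its 8-day call was lost with any 1 heart left out (edgeR adjusted p = 0.0509 to 0.21) and its 11-day call with any of 6 of the 8 (saline A or B, or any 11-day heart; 0.0555 to 0.129) and with effective lengths as offsets (0.323). The E-box repressor genes *Bhlhe40* and *Bhlhe41* were lower at 11 days, by 0.55 and 0.63 on the log2 scale (edgeR adjusted p = 0.00904 and 0.00204). At 4 days they stood at 0.01 and -0.20 (edgeR adjusted p = 0.98 and 0.223) and at 8 days at -0.48 and -0.49 (edgeR adjusted p = 0.0618 and 0.0232). The 8-day *Bhlhe41* call was lost without saline A or C or any 8-day heart (edgeR adjusted p = 0.0551 to 0.102), and *Bhlhe40* passed there with DESeq2 (0.0155).

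Of 9 further output genes of the clock, 3 passed at 4 days, 1 at 8 days and 5 at 11 days (2 higher, 3 lower), beside the same shares of all genes, with a median of -0.19 at 11 days. *Hlf*, which encodes a D-box activator of the same family as DBP, fell at all 3 times. It had 10.4 ± 0.85 CPM at 11 days, against 20.9 ± 4.05 CPM in saline hearts (SD, n = 4 each), and its log2 fold changes were -0.70, -0.71 and -1.02 (edgeR adjusted p = 0.00223, 0.0188 and 0.000593). *Usp2*, a ubiquitin protease gene that cycles in many tissues, stood at -0.37, -0.43 and -0.65 (edgeR adjusted p = 0.0311, 0.0683 and 0.00228). Its 4-day call was lost without saline C, saline D or any 4-day heart but B (edgeR adjusted p = 0.0729 to 0.0909), and its 8-day value passed with DESeq2 (0.0111). *Nfil3*, which encodes the repressor that competes for D-boxes, rose at 11 days to 5.40 ± 0.67 CPM, against 2.84 ± 0.21 CPM in saline hearts (SD, n = 4 each). Its log2 fold changes were 0.18, 0.32 and 0.93 (edgeR adjusted p = 0.516, 0.395 and 0.000792). *Lonrf3* stood at 0.64, 1.01 and 1.20 (edgeR adjusted p = 0.101, 0.0797 and 0.0049; 0.033 at 8 days with DESeq2). *Hlf* lost its 8-day call without 8-day B or 8-day C (edgeR adjusted p = 0.0744 and 0.102).

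**Figure D4:**
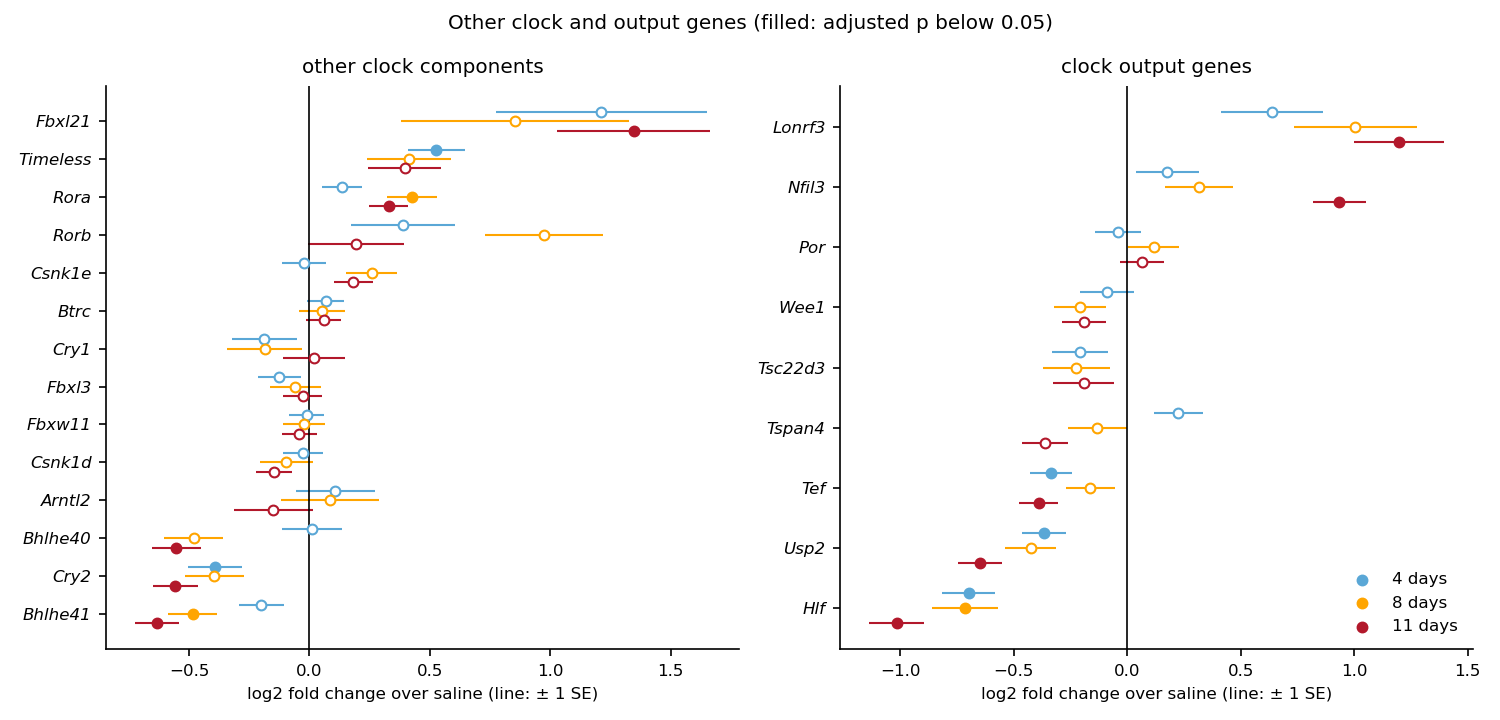
Log2 fold changes over saline at 4, 8 and 11 days of 14 other clock components (left) and 9 clock output genes (right), with lines of 1 SE; filled points have an edgeR adjusted p below 0.05. *Nfil3* lies right of 0 at 11 days, at 0.93, and *Hlf* lies left of 0 at all 3 times.

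Genes with known links to the clock in the heart were counted next. Of 6 such genes 4 passed as lower at 4 days, 1 at 8 days and 2 at 11 days. Of all genes 3.41, 1.20 and 1.95% passed as lower at these times. The median log2 fold changes of the 6 were -0.48, -0.21 and 0.01. *Dgat2*, a triglyceride synthesis enzyme gene, passed at each time, at -0.66, -0.47 and -0.42 (edgeR adjusted p = 0.00119, 0.0268 and 0.00736), and its 8-day call was lost with any 8-day heart left out (edgeR adjusted p = 0.0571 to 0.163) and without saline A, C or D. *Pik3r1* and *Nampt* were lower at 4 days, by 0.49 and 0.47 on the log2 scale (edgeR adjusted p = 0.0261 and 0.0474). The *Pik3r1* call was lost without saline D and without each 4-day heart but B (edgeR adjusted p = 0.0552 to 0.0839). The *Nampt* call was lost without any 1 saline or 4-day heart other than saline B and 4-day B (edgeR adjusted p = 0.0551 to 0.147). At 11 days they stood at 0.02 and 0.33 (edgeR adjusted p = 0.944 and 0.157). *Kcnh2*, a potassium channel gene, stood at -0.31, -0.37 and -0.48 (edgeR adjusted p = 0.146, 0.246 and 0.0435), and its 11-day call was lost with any heart but saline B left out (0.0505 to 0.143).

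Glucocorticoids, hormones that follow the time of day, induce *Per1*, so their target genes were counted beside it. Of 6 target genes other than *Per1*, 2 passed at 4 days, both lower, beside 3.41% of all genes. By the edgeR test 0 passed at 8 and 11 days, beside 2.27 and 3.75% of all genes. At these times 2 and 4 of the 6 had an unadjusted p under 0.05, as had 3493 and 4617 of all 26862 genes. With *Per1* included, 3 of the 7 had an unadjusted p under 0.05 at 8 days, and DESeq2 called 1, *Per1*. *Zbtb16* and *Klf9* stood at -0.85 and -0.57 at 4 days (edgeR adjusted p = 0.00377 and 0.00484), at -0.42 and -0.23 at 8 days (edgeR adjusted p = 0.203 and 0.543) and at -0.56 and -0.38 at 11 days (edgeR adjusted p = 0.22 and 0.076). *Fkbp5* had log2 fold changes of 0.08, 0.38 and 0.47 (edgeR adjusted p = 0.788, 0.311 and 0.103). Of these 3 genes DESeq2 called *Klf9* and *Fkbp5* at 11 days (adjusted p = 0.0214 and 0.0449).

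Markers of some other heart cells moved in the same hearts, in both directions. Of 5 endothelial markers 0 passed the edgeR test at 4, 8 and 11 days, beside 9.45, 2.27 and 3.75% of all genes. Their summed level was 261 to 318 CPM at 11 days, against 259 to 333 CPM in saline hearts. Of 4 smooth muscle and pericyte markers 1 passed at 4 days, lower, and 0 at 8 and 11 days. All 6 fibroblast markers and all 6 macrophage markers passed as higher at 4 days, and 2 and 1 of them at 11 days. Of all genes 6.04 and 1.80% passed as higher at 4 and 11 days. The summed fibroblast level was 599 to 1854 CPM at 4 days and 383 to 635 CPM at 11 days, against 280 to 337 CPM in saline hearts. The summed macrophage level was 182 to 312 CPM at 4 days and 137 to 170 CPM at 11 days, against 88.2 to 146 CPM in saline hearts. Of 3 red blood cell markers, 2 passed as lower at 4 days and 2 at 11 days, beside 3.41 and 1.95% of all genes. Their summed levels were 25.6 to 137 CPM at 4 days and 42.9 to 137 CPM at 11 days, against 73.0 to 380 CPM in saline hearts. Of 8 cardiomyocyte markers 3, 1 and 1 passed as lower at 4, 8 and 11 days, beside 3.41, 1.20 and 1.95% of all genes. Of 4 lymphocyte markers 1 passed as lower at 11 days. Of 4 atrial markers only *Nppa*, which stressed ventricular muscle also expresses, passed, at 4 and 8 days, and the other 3 stood at or under 1.06 CPM in every heart. In bulk tissue, fewer cells of a type and less RNA per cell cannot be told apart, and the part of cell composition in the members' changes was not tested.

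Across the 15 hearts, *Dbp* had the lowest Pearson correlation with *Arntl* of the 8540 genes with a mean of at least 5 CPM, at -0.94 on log2(CPM + 0.5). The members *Ciart*, *Npas2* and *Arntl* itself lie under that level and are not among the 8540 genes. The next lowest were *Fblim1* (-0.92), *Hlf* (-0.92), *Usp2* (-0.92) and *Nr1d1* (-0.91). Among the highest were *Atp2c1* (0.95), *Ppfibp1* (0.93), *Ppfibp2* (0.92) and *Ypel2* (0.91). With *Dbp* the highest were *Dyrk1b* (0.93), *Nr1d1* (0.91), *Synpo2l* (0.90), *Usp2* (0.90) and *Pcca* (0.88). With *Dbp* the lowest were *Atp2c1* (-0.93), *Zhx1* (-0.90), *H2aw* (-0.89), *Dnajc2* (-0.88) and *Gm14325* (-0.88). These values describe 15 hearts in 4 groups, which share their libraries' scaling, and the differences between groups enter them.

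Several members overlap other genes, and the strand setting of the counting is not given in the sources used here, so reads of a gene and a partner on the opposite strand cannot be told apart. *Nr1d1* shares 1075 bases at its end with *Thra* on the opposite strand, and *Thra* (24.1 to 32.8 CPM) had log2 fold changes of -0.07, -0.05 and 0.08 (edgeR adjusted p = 0.722, 0.897 and 0.728). *Dbp* shares 737 bases with *Sphk2* (7.99 to 10.9 CPM), which stood at -0.19, -0.12 and -0.06 (edgeR adjusted p = 0.272, 0.735 and 0.84). *C920021L13Rik* runs antisense over the whole of *Ciart* at 0.544 to 1.48 CPM, a level near that of *Ciart* in the 11-day hearts, and stood at -0.23, 0.08 and -0.37 (edgeR adjusted p = 0.565, 0.954 and 0.399). *Per3* lies within the span of *Camta1* on the same strand, and *Camta1* stood at 0.16, 0.11 and -0.03 (edgeR adjusted p = 0.209, 0.689 and 0.897).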

How the data were processed

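Ventricular RNA of 15 mouse hearts was sequenced from total-RNA libraries. Per the labels and methods, the authors used cutadapt 4.1 for trimming, HISAT2 2.2.1 for alignment (GRCm38.p6) and RSEM 1.3.3 for quantification. The deposited files hold expected counts and FPKM per gene, effective lengths, and for each transcript its percent of the gene. The sources used here do not give the annotation or the strand setting of the RSEM run.

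For the tests, expected counts were rounded. Genes with a summed count of at least 10 over the 15 libraries entered edgeR 4.0.16 (R 4.3.3), with TMM scaling and a quasi-likelihood test on the 2 groups compared, and Benjamini-Hochberg adjustment at 0.05. All groups entered the F test and the comparison of all treated hearts. Intervals are 95%. The pipeline was tested on simulated data. Nothing shows whether hearts of a group were treated or sequenced separately, so p-values measure the spread between these samples.

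The members and lists were chosen with earlier results of these data known. All 10 members are named. Of each other list, the 4 genes with the smallest p in the F test are named, with any that passed at all 3 times. In the likeness search, the 5 highest and 5 lowest correlations are named. Of the genes these rules select, 1 clock component and 1 gene of the likeness search are not reported here. DESeq2 1.42.0, limma 3.58.1, other scalings and filters, a replicate block and leaving out each heart were alternatives.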

Additional observations from a re-analysis of the deposited data

Results flagged for a closer look

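In 3 of 30 groups of 4 or more hearts examined for a value far from its group, 1 heart stood apart by Dixon's criterion, where chance gives about 1 in 20. *Per2* had 13.8 CPM in 4-day B and 31.1 CPM in saline B, and *Per3* had 26.5 CPM in 11-day A.

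Levels differed between treated groups for 6 members by edgeR's test of the 2 groups compared. The labels give no day for the saline hearts, so each treated group has no saline group of its own time. Length of treatment therefore cannot be told apart from other differences between the treated groups. Between 11 and 4 days the log2 difference was 1.11 for *Arntl*, -0.92 for *Nr1d1*, -0.77 for *Dbp*, -0.75 for *Ciart*, -0.72 for *Per1* and -0.39 for *Per3*. Between 11 and 8 days it was -0.74 for *Dbp* and -0.83 for *Per1*, and the *Per1* call did not hold with any of 5 of the 7 hearts left out (edgeR adjusted p = 0.0604 to 0.159).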

How the results depend on the processing

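The count of members past the threshold was 6 at 4 days, 4 at 8 days and 8 at 11 days. With library size as the only scaling it was 2 at 4 days, and with limma on log2(FPKM + 0.1) it was 2, 0 and 4. Limma on FPKM also gave 4 in place of 7 for all isoproterenol hearts against saline, 5 in place of 8 in the F test and 3 in place of 6 between 11 and 4 days. Between 8 and 4 days 1 member passed in place of 0 with library size only, with no filter, with DESeq2 and with the replicate block. Between 11 and 8 days, in place of 2, the count was 0 with library size only and with limma on FPKM. It was 1 with filterByExpr, effective lengths as offsets, all groups in one fit and voom weights, and 4 with no filter, DESeq2 and DESeq2 with effective lengths. With 1 heart left out the counts were 5 to 7 at 4 days, 3 to 4 at 8 days, 6 to 8 at 11 days, 7 to 8 for all isoproterenol hearts, 7 to 8 in the F test, 0 to 1 between 8 and 4 days, 6 to 7 between 11 and 4 days and 1 to 2 between 11 and 8 days. The cause of these changes was not tested.

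Directions turned only in log2 fold changes that had not passed. At 4 days, library size only gave 0.18 for *Clock*, 0.10 for *Per3* and 0.0049 for *Bhlhe41*, and limma on FPKM gave 0.20, 0.16 and 0.049. *Bhlhe40* at 4 days was -0.0026 with DESeq2 size factors, -0.0034 with DESeq2 and -0.0053 with DESeq2 and effective lengths. With effective lengths in edgeR and in DESeq2, *Rora* at 4 days was -0.032 and -0.041 and *Pik3r1* at 11 days was -0.13 and -0.13, and limma on FPKM gave -0.027 for *Pik3r1*. *Nampt* at 8 days was -0.012 with library size only, -0.0034 with effective lengths and -0.084 with limma on FPKM. With 1 heart left out, the ranges that crossed 0 were -0.082 to 0.041 (*Clock*), -0.20 to 0.011 (*Per3*), -0.094 to 0.11 (*Bhlhe40*) and -0.040 to 0.17 (*Fkbp5*) at 4 days, -0.0064 to 0.19 (*Nampt*) at 8 days, -0.016 to 0.15 (*Pik3r1*) at 11 days and -0.041 to 0.085 (*Clock*) over all isoproterenol hearts. Of the log2 values under other settings, 1089 kept direction and side of the threshold, 82 lost a call, 50 gained one and 17 turned.

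Library size only moved the median of all genes to 0.21 at 4 days (2533 higher and 293 lower calls, in place of 1623 and 915), to -0.10 at 8 days (167 and 280, in place of 288 and 322) and to 0.06 at 11 days (415 and 220, in place of 483 and 523). The replicate letters did not pair the hearts: same-letter deviations correlated at -0.34 to 0.36 (median -0.048), and 3 of 15 hearts correlated best with their own letter. With the replicate block, *Per1* and *Per2* passed at 8 days (edgeR adjusted p = 0.00675 and 0.0149), and 6, 6 and 8 members passed at 4, 8 and 11 days. With DESeq2 and with no filter, 6 members also passed at 8 days. *Arntl* and *Npas2* rest on as few as 12 counts a library, which limits their precision.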
